A study of Mus musculus with 6 samples.

Results

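A set of 9 genes of lipid sensing, uptake, transport and export was followed in mouse monocytes, the phagocytes that bone marrow releases into the blood. They were taken by name from the deposited count table, and all 9 were found among its 24421 genes: Pparg, Nr1h3 and Rxra (nuclear receptors), Cd36 and Lpl (lipid uptake), Fabp4 and Fabp5 (intracellular fatty acid carriers), and Abca1 and Abcg1 (cholesterol export). Poly(A) RNA came from monocytes sorted from the bone marrow of B6 mice. The labels name no transgene, deletion or age. In 3 libraries the cells had been given 5 ng of the myeloid growth factor GM-CSF (granulocyte-macrophage colony-stimulating factor; the volume is not stated) for 3 h, and 3 libraries were controls. The labels conflict on the controls: one field calls them freshly isolated, others describe medium without the cytokine for the same 3 h. If they were not cultured, time in culture and GM-CSF cannot be told apart. The labels do not say whether replicates are separate mice or cultures. P-values therefore measure only how far these samples spread, and that spread may be technical.

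PPARγ, the product of Pparg, is a transcription factor that fatty acids and their derivatives bind directly. LXRα, the product of Nr1h3, is bound by oxidised cholesterol. Each pairs with an RXR such as RXRα, and the pairs sit on direct repeats of a short DNA element, where they control genes that take up, store and export lipid. In lung, PPARγ is known as a factor that developing alveolar macrophages need and that GM-CSF induces, and in macrophages generally the LXR pair is known for driving Abca1 and Abcg1 when cholesterol accumulates.

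All 9 genes were higher with GM-CSF, and in none did the libraries of the groups overlap. Fabp4 and Cd36 rose most, by log2 fold changes of 4.57 and 4.36, followed by Lpl at 2.72, Abca1 at 2.09, Fabp5 at 1.96 and Pparg at 1.56, while Nr1h3, Rxra and Abcg1 rose by less than 1. The background for these counts was high. Of 11731 genes tested, 64.0% changed, 32.8% were higher and 31.2% were lower with GM-CSF, and 34.9% had every GM-CSF library above every control library. A call or a lack of overlap was therefore common in this comparison. For sizes, the median log2 fold change was 1.96 over the 9 genes and 0.01 over all genes tested. Because the 9 genes were chosen with earlier results of these data known, this difference is a description and not a test. The test was edgeR's quasi-likelihood F test, 2-sided, with Benjamini-Hochberg adjustment over all genes tested, and a gene with an adjusted p under 0.05 is said to have risen or fallen. In RNA from many cells together, a change in the share of cells of a type and a change in RNA per cell cannot be told apart.

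**Figure D1:**
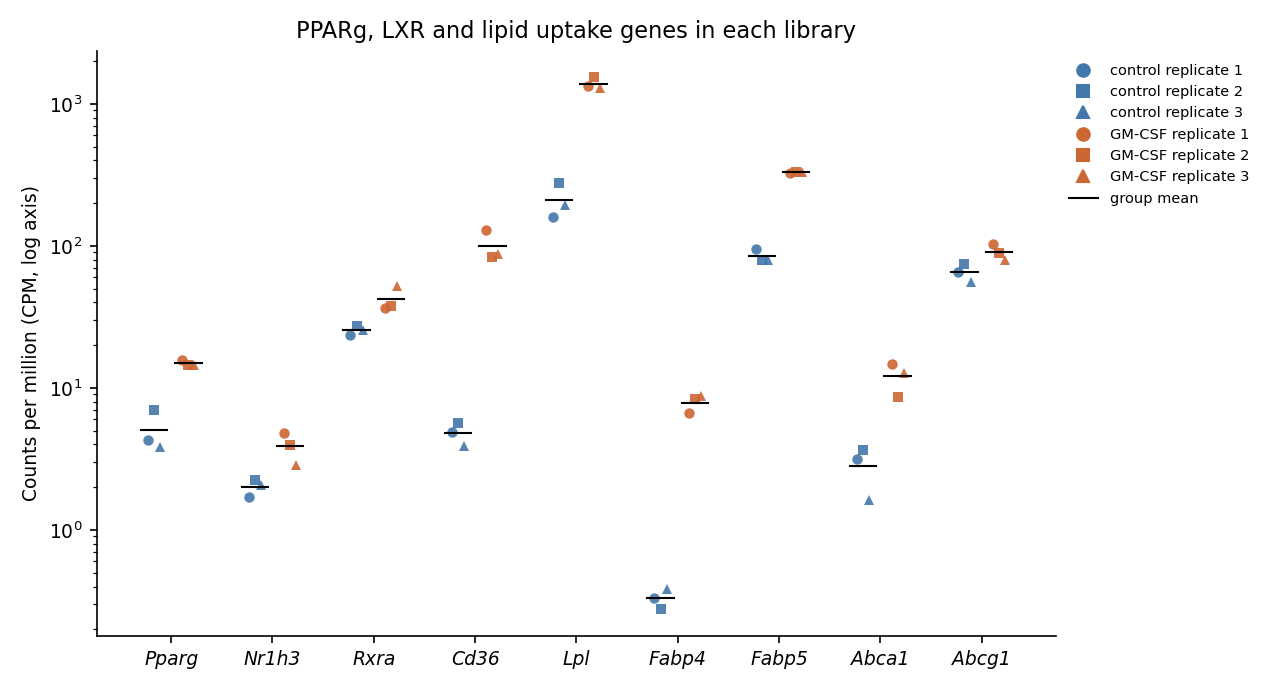
Level of the 9 genes as CPM (reads of the gene scaled to 1e+06 reads in all genes, log axis) in each of the 6 libraries, with control in blue, GM-CSF in orange, 1 symbol per replicate and a bar at each group mean. For every gene the 3 GM-CSF libraries lie above the 3 control libraries, with the widest gaps for Cd36 and Fabp4 and the narrowest for Abcg1.

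The libraries held between 16643228 and 25232956 reads in genes, at which a count of 0 allows up to 3 reads, or 0.119 to 0.180 CPM (counting error only). All 9 monocyte markers searched for were present, at 66158 to 75400 CPM together in the controls and 30252 to 33017 CPM with GM-CSF, and 7 of them fell. Most of that sum was Lyz2, at 50848 to 59378 CPM in controls and 20377 to 22481 CPM with GM-CSF. Csf1r did not pass the threshold, at 1362 to 1602 CPM in controls and 1596 to 1666 CPM with GM-CSF. Markers of neutrophils and their precursors were also high, at 28872 to 39754 CPM together in controls and 16601 to 20763 CPM with GM-CSF, with 7 of 12 tested lower and 1 higher. The precursor genes Mpo (3979 to 5292 CPM with GM-CSF and 3417 to 4898 CPM in controls) and Elane (2195 to 2776 and 1965 to 2765 CPM) overlapped between groups. Non-classical monocyte markers summed to 1015 to 1168 CPM in controls and 346 to 389 CPM with GM-CSF, and 8 of 9 fell. Cx3cr1, which the monocyte list also holds, led in controls and Itgal led with GM-CSF. B cell markers summed to 62.1 to 71.5 CPM in controls and 34.7 to 43.3 CPM with GM-CSF, and 2 of 6 tested fell. One library stood apart in a single list: platelet and megakaryocyte markers summed to 29.2 CPM in control replicate 3 and to 2.12 and 2.34 CPM in the other controls. Beside these marker counts, 31.2% of all genes tested fell and 32.8% rose. The change in marker levels between the groups accompanied every result here, and its part in them was not tested.

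Pparg lies on mouse chromosome 6 (chr6:115360951-115490399, plus strand, GRCm38). The GM-CSF libraries held 15.7, 14.6 and 14.4 CPM of it, from 816 reads in all, and the controls 4.29, 7.01 and 3.85 CPM, from 360 reads. Control replicate 2 was the highest control but still lay below every GM-CSF library. The log2 fold change was 1.56 ± 0.21 (SE), or 2.95-fold (edgeR adjusted p = 7.43e-05), and 6.73% of all genes tested had a higher value. The GM-CSF libraries were closely spaced, with a coefficient of variation of 4.50% against 33.9% in the controls.

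Nr1h3 (chr2:91184061-91202834, minus strand) was the rarest of the 3 receptors per kilobase. It reached 4.83, 3.97 and 2.89 CPM with GM-CSF and 1.71, 2.26 and 2.07 CPM in controls, on 209 and 141 reads. The groups did not overlap, but GM-CSF replicate 3 lay close to the highest control. The rise of 0.95 ± 0.27 on the log2 scale passed the threshold (edgeR adjusted p = 0.0101), but the call depended on 1 library. Without GM-CSF replicate 1 the log2 fold change was 0.76 with an edgeR adjusted p of 0.0508. In the annotation, 34 bases of Nr1h3 exons are shared with Gm13783, a gene on the same strand that is not a row of the table.

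Rxra, the shared partner of both receptors (chr2:27676440-27762957, plus strand), was the most abundant of the receptors per kilobase. Its levels were 36.3, 37.8 and 51.8 CPM with GM-CSF and 23.5, 27.1 and 25.6 CPM in controls. GM-CSF replicate 3 was well above the other GM-CSF libraries, and the groups did not overlap. Rxra rose by 0.73 ± 0.14 on the log2 scale (edgeR adjusted p = 7.95e-04), and by 0.56 without GM-CSF replicate 3. The 250 bases before 1 of its starts are shown because they hold a repeat close to the one that PPAR pairs with RXR prefer, marked in capitals (RefSeq, GRCm38.p6, chr2:27709042-27709291, plus strand).
Rxra: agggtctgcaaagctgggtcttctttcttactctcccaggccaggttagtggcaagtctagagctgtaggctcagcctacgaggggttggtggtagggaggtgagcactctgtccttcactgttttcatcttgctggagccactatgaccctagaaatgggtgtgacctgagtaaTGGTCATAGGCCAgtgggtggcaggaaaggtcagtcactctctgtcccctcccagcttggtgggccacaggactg

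Cd36 encodes a scavenger receptor that brings oxidised lipoproteins and long-chain fatty acids into macrophages, and is a textbook PPARγ target. In the GM-CSF libraries it stood at 129, 83.1 and 87.1 CPM, against 4.92, 5.71 and 3.90 CPM in controls. GM-CSF replicate 1 was the highest and all 3 were more than 10 times any control. The log2 fold change was 4.36 ± 0.21, or 20.6-fold (edgeR adjusted p = 2.13e-08), and 1.41% of genes tested had a higher value. Platelets also carry CD36. Control replicate 3, the library with the most platelet marker RNA, held 3.90 CPM of Cd36, and the log2 fold change without it was 4.22. The part of platelet RNA in the Cd36 levels was not tested. The gene lies at chr5:17781690-17888801 on the minus strand. The 250 bases before the start listed for it (chr5:17835897-17836146, minus strand) hold a repeat of the same kind, in capitals.
Cd36: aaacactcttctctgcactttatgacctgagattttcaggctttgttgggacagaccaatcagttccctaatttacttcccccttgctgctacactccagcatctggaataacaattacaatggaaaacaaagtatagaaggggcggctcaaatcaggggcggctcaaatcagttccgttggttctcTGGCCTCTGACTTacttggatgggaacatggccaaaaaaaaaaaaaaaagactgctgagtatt

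Lpl encodes lipoprotein lipase, the secreted enzyme that frees fatty acids from triglyceride-rich lipoproteins (chr8:68880491-68907448, plus strand). It was already abundant in controls, at 160, 275 and 195 CPM, and reached 1334, 1534 and 1283 CPM with GM-CSF. Replicate 2 was the highest library in each group, and the groups were far apart. The rise was 2.72 ± 0.17 on the log2 scale, or 6.61-fold (edgeR adjusted p = 1.63e-07).

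Fabp4 and Fabp5 encode small cytoplasmic proteins that carry fatty acids, and Fabp4 is a much used readout of PPARγ activity. The genes lie near each other on chromosome 3 (Fabp4 at chr3:10204088-10208576, minus strand, and Fabp5 at chr3:10012548-10016607, plus strand). Fabp4 was close to silent in controls, with 8, 7 and 8 reads, or 0.333, 0.277 and 0.385 CPM. With GM-CSF it had 112, 138 and 187 reads, or 6.67, 8.29 and 8.71 CPM. No control library reached the level that the filter on low counts asks for, so Fabp4 entered the test through the GM-CSF group alone. Its log2 fold change was the largest of the 9, at 4.57 ± 0.27, or 23.7-fold (edgeR adjusted p = 1.25e-07).

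Fabp5 was abundant in both groups. The controls held 95.6, 79.1 and 79.2 CPM and the GM-CSF libraries 324, 330 and 331 CPM. The GM-CSF libraries were almost equal, with a coefficient of variation of 1.11%, the smallest of any of the 9 genes in either group. Fabp5 rose by 1.96 ± 0.09 on the log2 scale, or 3.89-fold (edgeR adjusted p = 1.99e-08). Among annotated transcripts, those of 5 pseudogenes match at least 300 bases of Fabp5 at 90% identity or more, and none of these pseudogenes is a row of the table. Reads from the shared stretches may therefore be missing, and the Fabp5 level is uncertain to that extent. Of the other fatty acid binding genes of the cluster, Pmp2 and Fabp9, which lie between Fabp5 and Fabp4, had 0 reads in all 6 libraries, and Fabp12 beyond them had 1, 4 and 0 reads with GM-CSF and 0 in each control.

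Abca1 encodes the transporter that passes cholesterol and phospholipid to lipid-poor apolipoprotein A-I, and is a classical LXR target (chr4:53030787-53159895, minus strand). With GM-CSF it measured 14.8, 8.65 and 12.7 CPM and in controls 3.17, 3.65 and 1.64 CPM. GM-CSF replicate 2 was the lowest treated library and still more than 2 times the highest control. The log2 fold change was 2.09 ± 0.29, or 4.26-fold (edgeR adjusted p = 8.77e-05). The 250 bases before its start (chr4:53159896-53160145, minus strand) are shown for the stretch in capitals. It differs at 3 letters from a repeat with 4 bases between, the spacing that LXR pairs with RXR prefer, and so loose a match was found in 21.9% of all promoters of the same table.
Abca1: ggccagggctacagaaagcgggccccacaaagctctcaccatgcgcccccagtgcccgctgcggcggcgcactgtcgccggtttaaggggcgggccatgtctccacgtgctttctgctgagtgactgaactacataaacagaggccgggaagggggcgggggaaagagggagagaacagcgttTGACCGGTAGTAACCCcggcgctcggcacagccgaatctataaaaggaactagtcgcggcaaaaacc

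Abcg1 encodes the transporter that loads cholesterol onto mature high-density lipoprotein particles (chr17:31057675-31117988, plus strand). It measured 103, 89.0 and 80.1 CPM with GM-CSF and 65.1, 75.0 and 55.2 CPM in controls. The groups did not overlap, but GM-CSF replicate 3 and control replicate 2 were neighbours. The log2 fold change of 0.48 ± 0.13, or 1.40-fold, was the smallest of the 9 (edgeR adjusted p = 0.00648), and 26.5% of genes tested had a higher value.

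**Figure D2:**
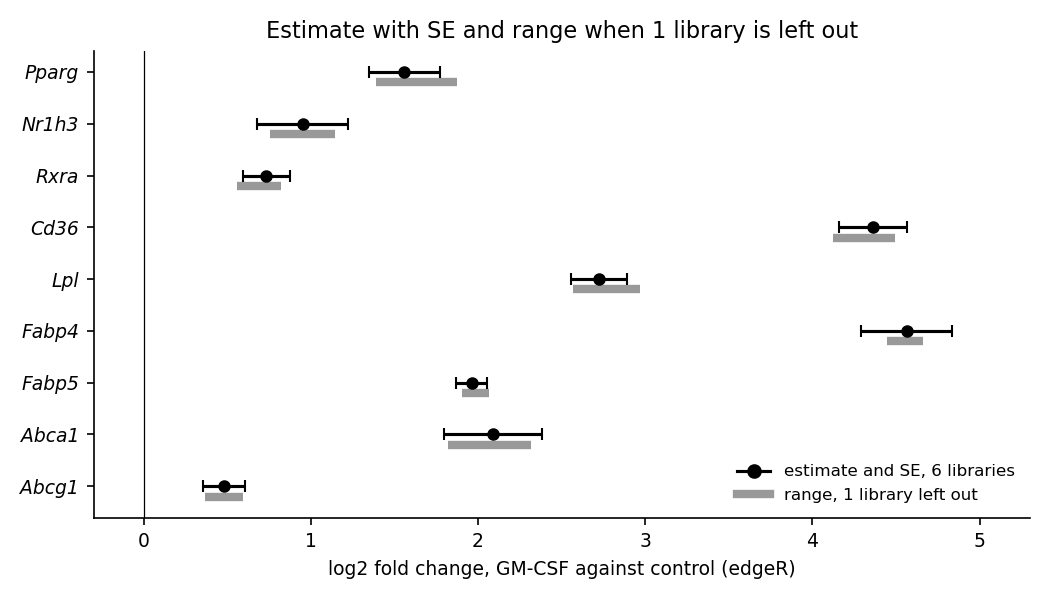
Log2 fold change, GM-CSF against control, of the 9 genes, with black points and bars for the edgeR estimate and its SE on 6 libraries and grey bars for the range when each library is left out in turn. Every range stays above 0, from 0.36 to 0.59 for Abcg1 up to 4.44 to 4.66 for Fabp4.

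The promoters listed in the RefSeq table were searched on both strands for a few elements. It holds 9 promoters of 5 of the genes (Pparg, Nr1h3, Rxra, Cd36 and Abca1), each running from 250 bases before to 50 bases after a start, among 32851 promoters. The receptor element AGGTCA was found in 4 of the 9, in Pparg, Rxra and Cd36, and in 16.3% of all promoters. A direct repeat of it (both copies in 1 direction) with 1 base of any kind between was matched with at most 2 mismatches in 2 of the 9 and in 3.86% of all promoters. These were the stretches in capitals above, 75 to 63 bases before the Rxra start and 63 to 51 bases before the Cd36 start, the latter on the opposite strand, and neither overlaps an exact copy of the element.

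The same repeat with 4 bases of any kind between had no match with at most 2 mismatches in the 9 promoters and had one in 3.02% of all promoters. At 3 mismatches, a limit chosen after the Abca1 sequence had been seen, 3 of the 9 held one (Abca1, Pparg and Rxra) along with 21.9% of all promoters. The Abca1 match lies 67 to 52 bases before the start, and those of Pparg and Rxra overlap an exact copy of the element. TATAAA was found in 2 of the 9, including Abca1 at 29 to 24 bases before the start, and in 13.6% of all. None of the 9 held the STAT5 palindrome TTCNNNGAA (8.30% of all promoters), the EGR site GCGGGGGCG (2.91%), the C/EBP site TTGCGCAA (0.183%), the AP-1 site TGANTCA (7.81%) or the PU.1 core GAGGAAGT (3.20%). A match in these windows describes letters and not binding.

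Levels of different genes were compared per kilobase of the longest protein-coding transcript (GENCODE M21). In controls the order ran from Fabp5 at 85.7 CPM per kilobase and Lpl at 51.1 through Abcg1 at 11.2, Rxra at 5.18 and Pparg at 2.38 to Cd36 at 1.42, Nr1h3 at 1.03, Fabp4 at 0.370 and Abca1 at 0.274. The library ranges of Cd36 and Nr1h3 overlapped, as did those of Fabp4 and Abca1. With GM-CSF, Lpl at 336 and Fabp5 at 333 CPM per kilobase were level at the top with overlapping ranges. Cd36 came next at 29.3 and had passed Abcg1, at 15.5. Fabp4 at 8.81 overlapped Rxra at 8.56, and Pparg at 7.01, Nr1h3 at 1.99 and Abca1 at 1.17 closed the order.

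The choice of length matters for the carriers and Lpl, whose annotated exons include long non-coding transcripts. Over the union of all exons the control order also began with Fabp5 at 23.7 and Lpl at 20.1 CPM per kilobase, then with overlapping ranges, and with GM-CSF Lpl at 132 stood clear of Fabp5 at 92.0. Fabp4 then lay at 1.76 CPM per kilobase with GM-CSF, below Pparg at 5.05.

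**Figure D3:**
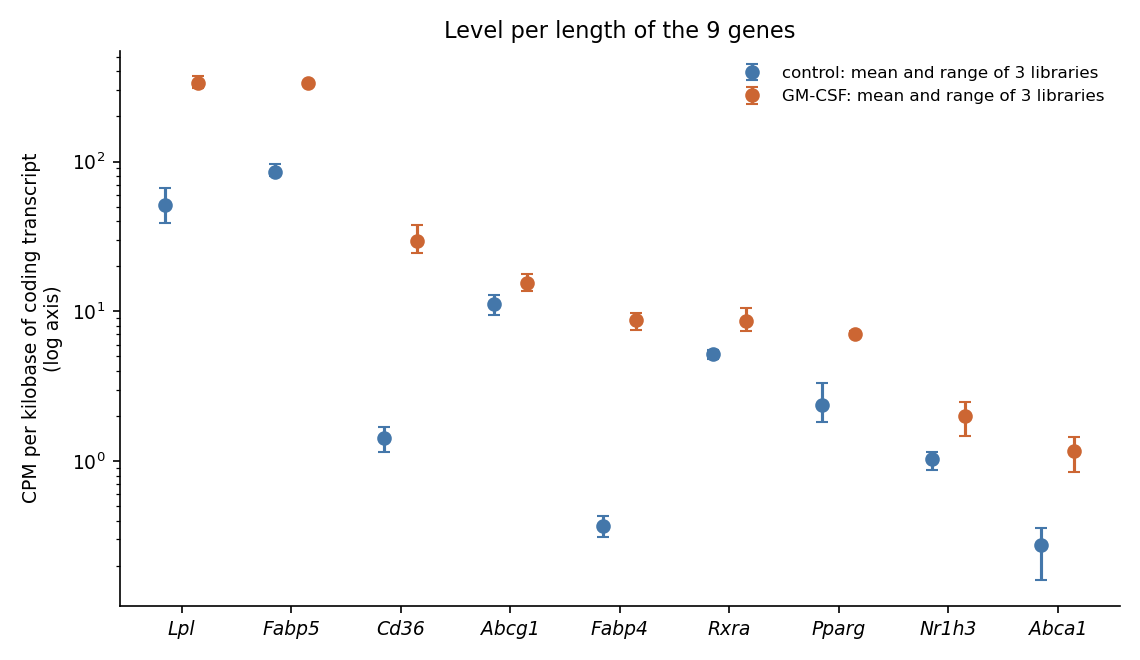
Level of the 9 genes in CPM per kilobase of the longest protein-coding transcript (log axis), with points at group means and bars over the range of 3 libraries, control in blue and GM-CSF in orange. Cd36 and Fabp4 move up the order with GM-CSF, while Lpl and Fabp5 lead in both groups.

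Then 3 ratios within a library set related genes side by side, per kilobase of all exons. Fabp4 to Fabp5 was 0.0164, 0.0200 and 0.0209 with GM-CSF and 0.00277, 0.00279 and 0.00386 in controls. Its mean was 6.08 times higher with GM-CSF, yet Fabp5 remained by far the more abundant carrier. Abca1 to Abcg1 was 0.102, 0.0685 and 0.111 with GM-CSF and 0.0342, 0.0342 and 0.0209 in controls, with a mean 3.15 times higher. Nr1h3 to Nr1h2, the gene of the sister receptor LXRβ, was 0.0464, 0.0374 and 0.0256 with GM-CSF and 0.0223, 0.0250 and 0.0240 in controls. Its mean was 1.53 times higher, and GM-CSF replicate 3 lay next to control replicate 2. None of the 3 ratios overlapped between groups. They were not tested, and the factors do not depend on the length used.

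Within the groups the 9 genes did not all vary together. Among controls, replicate 2 held the highest level of 7 of the 9 genes, and replicate 1 that of Fabp5 and replicate 3 that of Fabp4. Among GM-CSF libraries, replicate 1 was the highest for 5 genes, replicate 3 for 3 and replicate 2 for 1. Replicate 3 was the lowest for 4 genes in each group.

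The genes whose centred log2 CPM over the 6 libraries differed least from that of Fabp4, Pparg and Nr1h3 were looked up among 10978 genes. They describe likeness over these libraries, which all share 1 contrast. For Fabp4 they were Arap2, which encodes a GTPase-activating protein (root mean square difference 0.134), Ovol2, which encodes a zinc finger factor (0.146), and Myc (0.146). Arap2 averaged 2.45 CPM in controls and 49.2 CPM with GM-CSF, Myc 18.8 and 297 CPM, and Ovol2 had 0 reads in controls and 97 with GM-CSF. Like Fabp4, Ovol2 entered the test through the GM-CSF group alone. The prior count of 2 shrinks differences at such low counts, so the likeness of Ovol2 to Fabp4 holds only on that scale. In the gene test their log2 fold changes were 8.21 for Ovol2 and 4.57 for Fabp4. Nearest to Pparg were Atp8b2, a phospholipid flippase gene (0.137), the integrin gene Itga1 (0.150) and Simc1 (0.162). Nearest to Nr1h3 were Peo1, the gene of the mitochondrial DNA helicase (0.0766), the retinol dehydrogenase gene Rdh13 (0.0982) and Dph1 (0.103).

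Beyond the 9 genes, 7 lists of related genes were described, with 113 genes in all. Among related receptors and coregulators, 7 of 13 tested rose and 1 fell, with a median log2 fold change of 0.31. Of all genes tested, 32.8% rose and 31.2% fell. Within the list, the log2 fold changes of the other receptor genes were below that of Pparg. Ppard, encoding the broadly expressed PPARδ, measured 7.63, 6.97 and 6.24 CPM with GM-CSF and 5.04, 3.33 and 4.43 CPM in controls, without overlap, and rose by 0.71 ± 0.21 (edgeR adjusted p = 0.0108). Ppara had 1 read in all libraries together. Nr1h2 rose by 0.36 ± 0.08. Rxrb, a further RXR gene, fell by 0.20 on the log2 scale (edgeR adjusted p = 0.0450), a call lost when any 1 of 5 of the 6 libraries was left out, and Rxrg had 1 read. Of the coactivators, Ppargc1b rose most, by 1.10 ± 0.22, from a mean of 2.26 to 4.82 CPM, and its relative Ppargc1a had 0 reads. Ncoa3 rose by 0.65 ± 0.08, and the corepressor gene Ncor1, at a log2 fold change of 0.11, did not pass the test.

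Other PPAR target genes went both ways. The test covered 18 of them: 4 rose, 8 fell and 6 missed the threshold, with a median of -0.08, where 32.8% of all genes tested rose and 31.2% fell. Hilpda, a lipid droplet protein gene, rose by 1.65 ± 0.29, and Mgll, the monoacylglycerol lipase gene, by 1.43 ± 0.17. The others that rose were Aqp9 and Slc25a20, and the count was 2 without GM-CSF replicate 1 or without control replicate 3. Aqp9 had 22, 10 and 1 reads in controls, not all at the level of the filter, so it entered the test through the GM-CSF group. Among those that fell, Cpt1a, the enzyme that admits long-chain fatty acids to mitochondria for oxidation, held 55.4, 56.4 and 63.4 CPM with GM-CSF and 195, 267 and 208 CPM in controls. Every control was more than 3 times every GM-CSF library, and the log2 fold change was -1.93 ± 0.12 (edgeR adjusted p = 1.54e-07). Plin2, which coats lipid droplets, fell by 1.09 on the log2 scale, from a mean of 343 to 161 CPM. Acsl1, which activates fatty acids, changed by -1.02 ± 0.09. Acot1 also fell, but with 6, 4 and 4 reads with GM-CSF it entered the test through the controls alone.

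Among the 16 other LXR target genes tested, 5 rose and 7 fell, 4 missed the threshold, and the median was -0.06. The 5 that rose are 31.2% of the list, close to the 32.8% of all genes tested. Tgm2, encoding tissue transglutaminase, rose from 2.71, 2.38 and 2.94 CPM in controls to 96.1, 48.1 and 49.9 CPM, a log2 fold change of 4.61 ± 0.29 (edgeR adjusted p = 1.83e-07). Mertk, a receptor for dying cells, rose by 2.17 ± 0.37 and the fatty acid synthase gene Fasn by 1.78 ± 0.12. The other risers were Scd1, at 1.39 ± 0.43, and Arl4c, at 1.26 ± 0.29. Apoe, the apolipoprotein that accepts exported cholesterol, went the other way. It measured 325, 210 and 277 CPM with GM-CSF and 892, 1047 and 797 CPM in controls, with no overlap and a log2 fold change of -1.74 ± 0.16 (edgeR adjusted p = 2.77e-06). Pltp, the phospholipid transfer protein gene, which the PPAR list also holds, had the largest fall of the list, at -2.42 ± 0.23. Smpdl3a (-1.68 ± 0.07), Mylip (-1.56 ± 0.18), Apoc2 (-1.49 ± 0.39), Apoc1 (-1.39 ± 0.29) and Scd2 (-0.72 ± 0.13) also fell. Srebf1, the gene of the LXR-driven lipid synthesis factor SREBP1, differed by -0.04 ± 0.07 and did not pass.

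**Figure D4:**
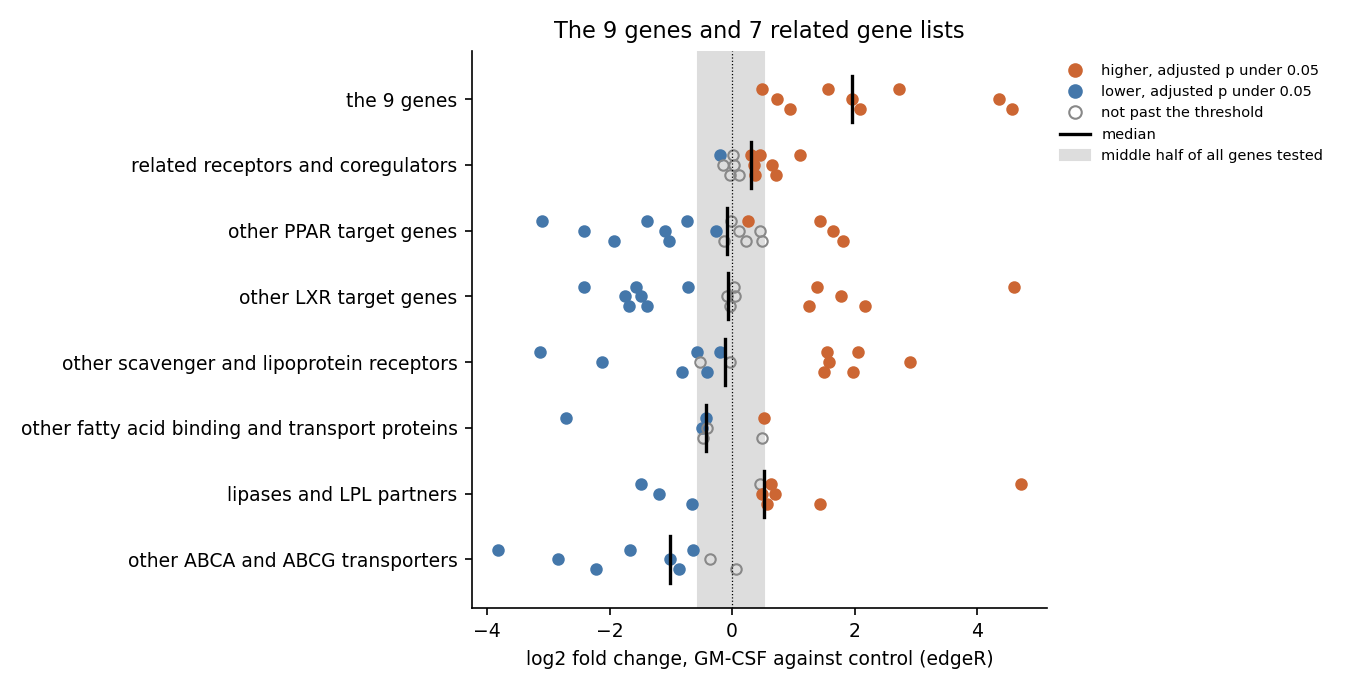
Log2 fold change, GM-CSF against control, of the 9 genes and of each tested gene in 7 related lists, with filled points for genes past the threshold (orange higher, blue lower), open grey points for the rest, a black bar at each median and a grey band between the quartiles of all genes tested. The 9 genes all lie to the right of 0 with a median of 1.96, while the medians of the lists run from -1.01 to 0.52. Genes and lists were chosen with earlier results of these data known.

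Cd36 was compared with other scavenger and lipoprotein receptors. Of 14 tested, 6 rose and 6 fell (median -0.11), beside 32.8% and 31.2% of all genes tested. Among those that rose, Msr1, the class A scavenger receptor, held 545, 433 and 421 CPM with GM-CSF and 164, 171 and 132 CPM in controls, and rose by 1.59 ± 0.13. Olr1, a receptor for oxidised lipoprotein, rose by 1.55 ± 0.13, and Cxcl16, a chemokine that also binds oxidised lipoprotein, by 2.91 ± 0.16. The mannose receptor gene Mrc1 rose by 2.06 ± 0.19 and Lrp8 by 1.98 ± 0.23. Among the receptors that fell were Cd163, which takes up haemoglobin with haptoglobin, at -2.12 ± 0.28, and Lrp1, at -0.82 ± 0.08. Colec12, Scarf1, Cd68 and Scarb1 fell as well, Scarb1 by 0.19 on the log2 scale. Colec12 had 5, 8 and 0 reads with GM-CSF, not all at the level of the filter, so it entered the test through the controls. Marco had 6 reads in all libraries together.

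Of 15 other fatty acid binding and transport genes, 7 could be tested. Of these 1 rose and 3 fell (median -0.43), beside 32.8% and 31.2% of all genes tested. Acbd3 rose by 0.52 ± 0.09. Slc27a4, a fatty acid transport protein gene, fell by 0.49 and Dbi, which carries acyl-CoA, by 0.43 on the log2 scale. Fabp7 fell from 0.959, 1.27 and 0.722 CPM to 0.119, 0.120 and 0.186 CPM. No GM-CSF library reached the level of the filter for Fabp7. It entered the test through the controls alone and could not have been called higher. Fabp3, the heart-type carrier, lay between 0.512 and 1.13 CPM in all 6 libraries and did not pass.

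Among lipases and proteins that handle LPL, 6 of 10 tested rose and 3 fell (median 0.52), beside 32.8% and 31.2% of all genes tested. Lipg, the endothelial lipase gene and a close relative of Lpl, rose from 0.917, 0.436 and 1.06 CPM to 18.2, 32.1 and 12.6 CPM, a log2 fold change of 4.72 ± 0.40 (edgeR adjusted p = 1.75e-06). It did not reach the level of the filter on low counts in all controls, so it entered the test through the GM-CSF group. Lmf1, which matures LPL in the endoplasmic reticulum, fell by 1.19 on the log2 scale, from a mean of 57.6 to 25.1 CPM, while Sel1l, which works with it, rose by 0.57 ± 0.09. Gpihbp1, the endothelial anchor of LPL, had 0 reads. Of the enzymes of stored fat, Pnpla2 rose by 0.71 ± 0.09, Lipe by 0.63 ± 0.10 and Abhd5 by 0.48 ± 0.07, and Lipa, the lysosomal acid lipase gene, fell by 0.65 on the log2 scale.

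Of 16 other ABCA and ABCG transporter genes, 9 could be tested. Of these 0 rose, 7 fell and 2 did not pass, with a median of -1.01, beside 31.2% of all genes tested that fell. At an unadjusted edgeR p under 0.05 the number that rose was also 0, as it was with limma-voom and with DESeq2. With no filter on low counts, 1 rose, Abcg5, on 3, 6 and 0 reads with GM-CSF and 0 in each control. Abcg3 held 0.834, 1.08 and 1.21 CPM with GM-CSF and 17.1, 16.0 and 11.6 CPM in controls, a log2 fold change of -3.82 ± 0.24 (edgeR adjusted p = 1.61e-07). Abca6 changed by -2.85 ± 0.26, Abca9 by -2.23 ± 0.15 and Abca3 by -1.67 ± 0.11. Abca13, Abca7 and Abca2 fell by less, and Abcg2, at 0.07 ± 0.17, and Abca4, at -0.36 ± 0.51, did not pass. Abca7, a close relative of Abca1, fell from 212, 238 and 231 CPM to 111, 137 and 124 CPM.

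**Figure D5:**
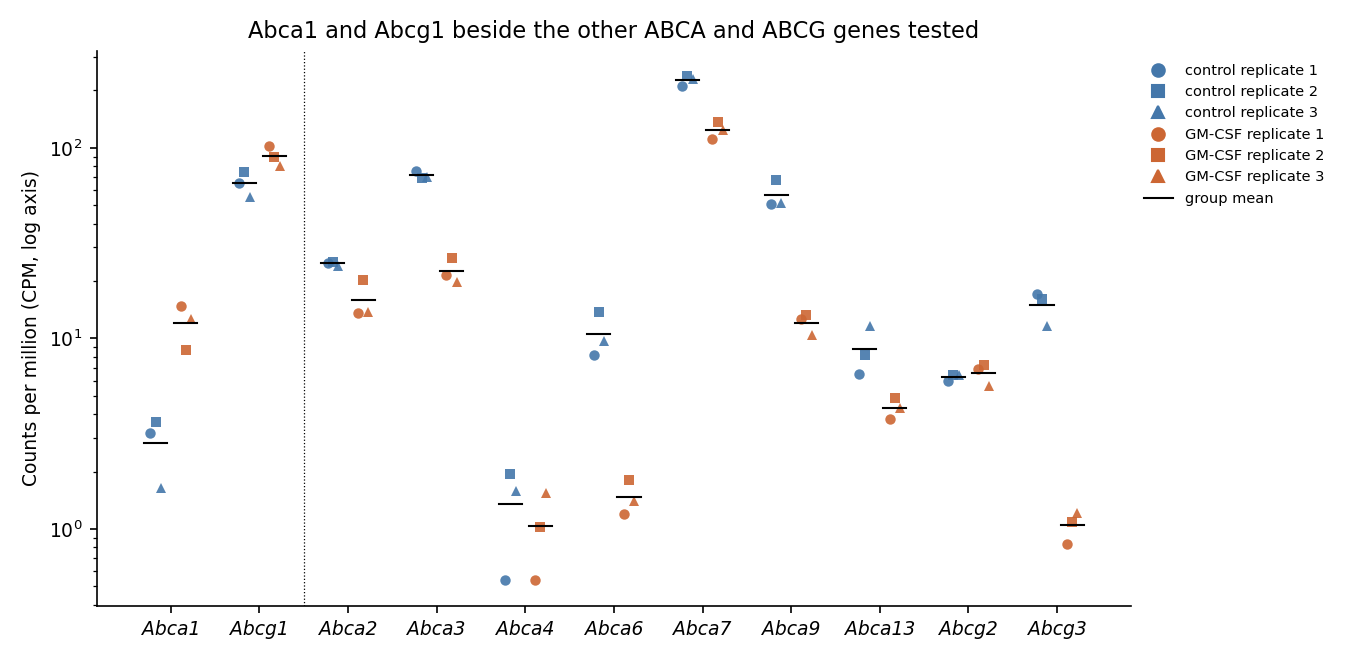
CPM (log axis) of Abca1, Abcg1 and the 9 other ABCA and ABCG genes tested, in each of the 6 libraries, with control in blue, GM-CSF in orange, 1 symbol per replicate and a bar at each group mean. Abca1 and Abcg1 are higher with GM-CSF, 7 others are lower, and Abcg2 and Abca4 overlap between groups.

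Markers of other cells that use these genes were read in the same libraries. Of 9 adipocyte markers, Lep and Pck1 had 0 reads, Plin1 had 1 read and Adipoq at most 7 reads in a library, so the sums of 44.1 to 51.4 CPM with GM-CSF and 29.9 to 33.4 CPM in controls were nearly all Lipe. Of 10 endothelial markers, Tek, Emcn and Gpihbp1 had 0 reads, and the sum was 11.6 to 14.4 CPM with GM-CSF and 14.5 to 18.7 CPM in controls, led by Pecam1. Platelet and megakaryocyte markers summed to 2.82 to 3.34 CPM with GM-CSF. The 8 dendritic cell markers summed to 209 to 257 CPM with GM-CSF and 117 to 153 CPM in controls, with 4 of 8 lower and 2 higher. Cd209a led with GM-CSF and Bst2 in controls. The 12 tissue macrophage markers summed to 396 to 536 CPM and 366 to 393 CPM, led by Adgre1, with 2 of 11 tested higher and 2 lower. The dendritic cell and tissue macrophage sums were higher with GM-CSF, as the 9 genes were, but each rested on the gene that led with GM-CSF. Cd209a measured 155 to 199 CPM with GM-CSF and 23.0 to 51.8 CPM in controls, and Adgre1 294 to 429 and 188 to 233 CPM. Without Cd209a or Adgre1, the sum of the list in question was lower in every GM-CSF library than in any control. Of all genes tested 32.8% were higher and 31.2% lower. The part of these markers in the results was not tested.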

How the data were processed

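Poly(A) RNA of 6 libraries was analysed from the deposited table of raw read counts per gene, which the authors made from 150-base paired reads. Per the submitters' processing notes, HTSeq 0.6.1p1, STAR 2.5.2a, Trim Galore 0.4.4 and edgeR were used with build mm10, in roles that are not stated. Annotation and strand setting are likewise not given in the sources read here, so reads of overlapping or antisense genes may be mixed. Rows that name no gene (reads in no gene, ambiguous or not unique) held 28.8% to 30.6% of each library's counted reads and entered neither library sizes nor tests. Gene counts per library (16643228 to 25232956) set the counting error.

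Groups came from the sample labels. The gene test ran in edgeR 4.0.16 under R 4.3.3 (TMM, filterByExpr with minimum count 10 and minimum total 15, quasi-likelihood F test, no term but group). Of the table's genes 12690 failed the filter and 11731 were tested, with Benjamini-Hochberg adjustment over all of them and a threshold of 0.05. SE was computed from the F statistic (size of the log2 fold change over root F). CPM uses the total of gene counts. Gene positions and lengths are from GENCODE M21 (GRCm38), promoters from RefSeq (GRCm38.p6).

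The 9 genes and the lists were chosen with earlier results of these data known. Named by rule were the 9 genes, from each related list the 2 largest rises and 2 largest falls past the threshold (mean log2 CPM 1 or more), the most abundant gene of each cell type list, and the 3 genes closest to Fabp4, Pparg and Nr1h3 in centred log2 CPM (prior count 2). Other genes were named after their values were seen, and a few list genes are not reported here. Alternatives were other scalings and filters, limma-voom 3.58.1, DESeq2 1.42.0, a replicate block, each library left out, and other gene lengths and mismatch limits. The procedure was tested on simulated data in which far fewer genes changed than were called here. That simulation does not show how the procedure behaves when so large a share of genes changes.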

Additional observations from a re-analysis of the deposited data

How the results depend on the processing

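The 9 genes kept their direction and their call under 10 alternative scalings, filters and tools and with each library left out, except Nr1h3 without GM-CSF replicate 1. Leaving out 1 library gave log2 fold changes of 0.76 to 1.14 for Nr1h3, 0.56 to 0.82 for Rxra, 1.39 to 1.87 for Pparg, 4.12 to 4.50 for Cd36, 2.57 to 2.97 for Lpl, 1.82 to 2.32 for Abca1 and 1.90 to 2.07 for Fabp5. The number of genes changed ran from 7292 to 7673 over the 10 alternatives and from 6739 to 7739 with 1 library left out. Upper quartile scaling moved the median of all genes by -0.12 on the log2 scale and the 9 genes with it, and 43.0% of calls were then higher against 51.3%. Same-numbered libraries did not deviate together (correlations of 0.0727, 0.00984 and 0.0038), so the numbers are not taken as pairs, and a fit with a replicate block called 7493 genes. Among related receptors and coregulators the number that fell was 2 with upper quartile scaling, 0 with no filter and 0 to 2 with 1 library left out. The number of other PPAR target genes that rose was 2 to 5 with 1 library left out. With no filter, 1 other ABCA or ABCG gene rose. Per kilobase of the longest protein-coding transcript, a length added after seeing the data, Fabp4 to Fabp5 was 0.00435 in controls and 0.0265 with GM-CSF, and Nr1h3 to Nr1h2 was 0.0182 in controls, against 0.0180 for the longest transcript of any kind; these shifts follow from the lengths. No promoter of the 9 genes held the repeat spaced by 1 base with at most 1 mismatch, and 3 held the repeat spaced by 4 bases with at most 3. At these depths Nr1h3 (141 control reads) and Fabp4 (23) had the fewest control reads.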

Other observations

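Among the 9 alveolar macrophage markers, 2 of 3 tested were higher, beside 32.8% of all genes tested. The list summed to 21.1 to 24.5 CPM with GM-CSF and 11.5 to 16.7 CPM in controls. Car4, a carbonic anhydrase gene singled out after its values were seen, had 155, 124 and 161 reads with GM-CSF and 0 reads in each control. It entered the test through the GM-CSF group alone, so it could not have been called lower. Car4 held 9.24, 7.45 and 7.50 CPM with GM-CSF, and without it the sums of the list overlapped between groups. Itgax, the CD11c gene, was at 4.41, 5.17 and 3.45 CPM with GM-CSF and from 1.0 to 1.73 CPM in controls. Atp6v0d2 had 16, 4 and 2 reads with GM-CSF and 1, 0 and 0 in controls. Siglecf lay at 9.06 to 11.2 CPM with GM-CSF and 10.3 to 14.9 CPM in controls, Krt79 had 0 reads, and Ear1 had 0 reads with GM-CSF.

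Of 4 osteoclast markers tested, 2 were higher and 1 was lower, beside 32.8% and 31.2% of all genes tested. Ocstamp had 141, 76 and 80 reads with GM-CSF and 7, 4 and 12 in controls. Dcstamp, a cell fusion gene, had 27, 32 and 52 reads with GM-CSF and 0 in each control. Neither Ocstamp nor Dcstamp reached the level of the filter in all controls, so both entered the test through the GM-CSF group. Acp5 was at 6.15 to 8.22 CPM with GM-CSF and 11.5 to 15.5 CPM in controls.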
